A study of Mus musculus with 7 samples.

Results

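The genes described are 10 rapid-response transcription factors, chosen by symbol from the count table of total RNA-seq: the FOS family (*Fos*, *Fosb*, *Fosl1*, *Fosl2*), the JUN family (*Jun*, *Junb*, *Jund*), *Atf3*, *Egr1* and *Npas4*. They are 10 of 52550 genes in the table, and all 10 had enough counts to be tested among 20128 genes. The samples were retinas of 4 WT mice and 3 homozygous SCA7 knock-in (KI) mice, all on C57BL/6J and 12.5 weeks old, with the 2 retinas of a mouse pooled in 1 library. SCA7 is spinocerebellar ataxia type 7, a polyglutamine disease with retinal degeneration. In the knock-in mice both copies of *Atxn7* carry the expanded repeat under the gene's own promoter, so every cell that uses the gene makes the mutant protein, and the model says nothing of which cell type a change began in. The question was which of these genes differ in level between SCA7 and WT retina. *Atxn7* itself stood at 39.2 ± 4.26 CPM (SD, n = 4) in the WT mice and 37.6 ± 2.99 CPM (SD, n = 3) in the knock-in mice (log2 fold change −0.06, edgeR adjusted p = 0.636), and a count per gene cannot show the length of the repeat.

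AP-1 is a transcription factor made of pairs of bZIP proteins, usually a FOS protein with a JUN protein, or JUN proteins with each other, which bind DNA through a shared leucine zipper and basic region. Most of these genes are immediate early genes: their transcripts are made within minutes of a stimulus, with no new protein needed, and most are degraded quickly, so a tissue sample catches a short window. In the retina they are known to respond to light, to neuronal activity and to injury, in neurons as well as in Müller glia.

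Total counts per library were between 56497675 and 96635832, so 1 count was worth between 0.01035 and 0.0177 CPM before scaling. Levels below are CPM, counts scaled to the depth of each library and by its TMM factor. These factors were 0.890 to 0.974 in WT and 1.07 to 1.09 in SCA7 libraries, and the median log2 fold change of all genes tested was −0.02 (quartiles −0.26 and 0.17). Retina was the tissue by its markers: 10 rod markers summed to 62300 to 64050 CPM in WT and to 16800 to 21720 CPM in SCA7 libraries. All 10 rod and all 10 cone markers were downregulated, while all 13 microglia and 8 of 10 reactive glia markers were upregulated. Summed microglia markers went from between 99.7 and 124.3 CPM to between 220.4 and 246.7 CPM, and summed reactive glia markers from between 358.9 and 398.4 CPM to between 687.1 and 758.6 CPM. The lists of Müller glia and of the other retinal neurons moved less. Among Müller glia markers 1 of 9 was upregulated (summed level of 5117 to 5885 CPM in WT and 5058 to 5326 CPM in SCA7). Downregulated were 2 of 10 bipolar, 1 of 10 amacrine, 0 of 6 horizontal and 0 of 10 ganglion cell markers. Of the horizontal and ganglion cell markers, 2 and 3 were lower at an unadjusted p under 0.05 by edgeR, and 0 of either list were called by DESeq2 or limma-voom. Of all 20128 genes tested, 2852 were lower at an edgeR adjusted p under 0.05 alone, so at least as many were at an unadjusted p. Among vessel markers 3 of 10 were upregulated, and among the 8 blood-derived leukocyte markers tested 1 was upregulated and 1 downregulated. Markers of tissue next to the retina were uneven between libraries. The summed pigment epithelium markers were 126 to 253.5 CPM in WT and 30.02 to 71.51 CPM in SCA7 libraries, with 4 of 10 downregulated, and red blood cell markers were 54.51 to 76.89 CPM and 30.53 to 61.7 CPM. The summed lens and cornea markers ranged from 53.14 to 648.3 CPM in WT and from 38.83 to 1036 CPM in SCA7 libraries, highest in replicate 2 of each genotype, with 0 of 7 called by edgeR, DESeq2 or limma-voom and 0 at an unadjusted p under 0.05. A retina of mixed cells was sequenced, so fewer cells of a type and less RNA per cell cannot be told apart, and the part of these markers in the results below was not tested.

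Of the 10 genes, 5 were upregulated in SCA7 retina (*Fosl1*, *Fosb*, *Jun*, *Junb*, *Egr1*), 1 was downregulated (*Npas4*) and 4 were not called (*Fos*, *Fosl2*, *Jund*, *Atf3*). Upregulated means an adjusted p under 0.05 by edgeR's quasi-likelihood test and a fold change FC (SCA7/WT) above 1.3, and downregulated the same with FC under 0.7. Among all genes tested 7.47% were upregulated and 7.91% downregulated. Every SCA7 library was above every WT library for 6 of the 10 genes, against 19.3% of all genes tested, and below for 1 of the 10, against 18.3%. The 3 genes with overlapping genotypes were *Fos*, *Fosl2* and *Atf3*. The median log2 fold change over the 10 genes was 0.40. The genes are few and were chosen with results of these data known, so these shares describe them and are no test. *Fosl1* was tested only because it was high in SCA7 retina, and of the other 9 genes 4 were upregulated.

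**Figure D1:**
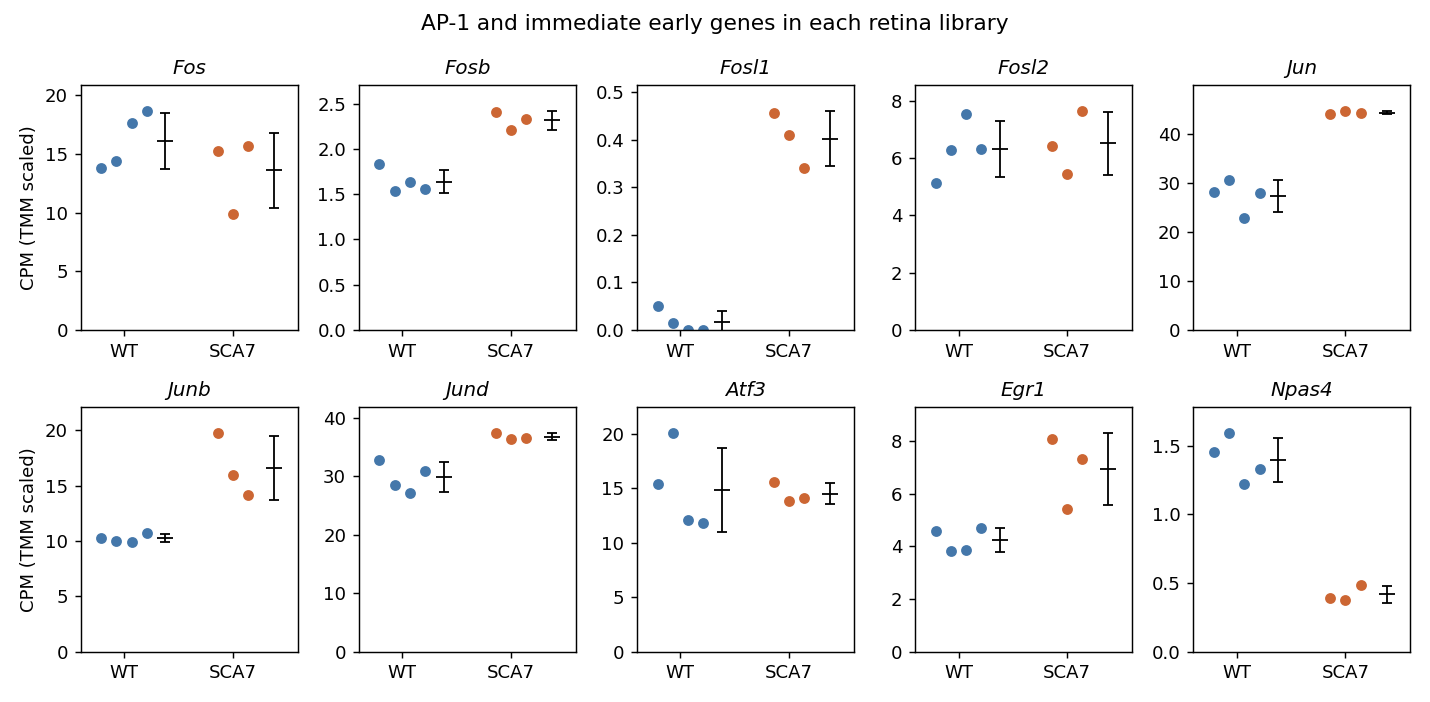
Level of each gene in CPM (TMM scaled, vertical axis from 0) in the 4 WT (blue) and 3 SCA7 (orange) libraries, 1 point per library in the order of replicate number, with the mean and SD in black beside them. *Fosl1*, *Fosb*, *Jun*, *Junb*, *Jund* and *Egr1* have all SCA7 points above all WT points, *Npas4* has them below, and the points of *Fos*, *Fosl2* and *Atf3* overlap.

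*Fosl1* encodes FRA1, a FOS protein that lacks the strong activation domain of FOS. It was almost absent from WT retina, with 3, 1, 0 and 0 counts in the 4 libraries, and had 28, 35 and 35 counts in the 3 SCA7 libraries. These are 0.0513, 0.0140, 0 and 0 CPM against 0.455, 0.410 and 0.340 CPM, so every SCA7 library lay well above every WT library, while the level stayed low in both genotypes. Summed over libraries, 4 counts stood against 98, a ratio of 24.4 per unit of scaled depth with an exact 95% interval of 9.23 to 91.3, which covers counting error only. A count of 0 allows up to 3 counts, or between 0.0419 and 0.0563 CPM in a WT library. The fitted log2 fold change was 4.48 ± 0.55 (SE, edgeR adjusted p = 9.49e-05) and ranked 11 among the increases of all genes tested, but it depends on the small prior count that the fit adds and rose to 5.84 without WT replicate 1, the library with 3 of the 4 WT counts. *Fosl1* passed the filter on low counts only through the SCA7 libraries, where it is high, so that a gene so low in WT had to differ to be tested at all, and its p, rank and call are a description rather than support. The exons of *Fosl1* (chr19:5447547-5455946, plus strand, GRCm38) share 1163 of their 2033 bases with *Ccdc85b* on the opposite strand. *Ccdc85b* had 8.88 to 11.1 CPM in WT and 8.57 to 8.75 CPM in SCA7 libraries (log2 fold change −0.18, edgeR adjusted p = 0.146), the opposite sign to *Fosl1*. The libraries were stranded, but the strand setting of the counting is not given in the sources used here, so reads in the shared bases are uncertain.

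*Fosb* encodes a FOS protein whose short splice form, ΔFOSB, is known for its long life in neurons under repeated stimulation. Its level was 1.83, 1.54, 1.63 and 1.56 CPM in WT and 2.41, 2.20 and 2.33 CPM in SCA7 libraries. The genotypes did not overlap, and the spread within each was small beside the gap between them. WT libraries averaged 1.64 ± 0.132 CPM (SD, n = 4) and SCA7 libraries 2.31 ± 0.102 CPM (SD, n = 3), and the log2 fold change was 0.50 ± 0.126 (SE, edgeR adjusted p = 0.0114). This call was the least firm of the 5: without SCA7 replicate 1 the adjusted p was 0.0547 at a log2 fold change of 0.47. Counts per gene do not separate the splice forms.

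*Fos*, the founding member of the family and the usual marker of recently active neurons, was not called. It had 13.8, 14.4, 17.6 and 18.7 CPM in WT and 15.2, 9.89 and 15.7 CPM in SCA7 libraries. SCA7 replicate 2 lay below all other libraries, and the remaining SCA7 libraries lay inside the WT range. The log2 fold change was −0.25 with a 95% interval from −0.64 to 0.14 (edgeR adjusted p = 0.324), and it was −0.06 without SCA7 replicate 2, so a modest decrease or a small increase are both within the interval.

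*Fosl2* encodes FRA2, the other FOS protein without the strong activation domain. Its level was 5.13, 6.28, 7.54 and 6.30 CPM in WT and 6.44, 5.46 and 7.64 CPM in SCA7 libraries. The genotypes covered almost the same range. The log2 fold change was 0.05 with a 95% interval from −0.26 to 0.35 (edgeR adjusted p = 0.827).

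All JUN genes were higher in every SCA7 library than in any WT library. *Jun* encodes the classic partner of FOS and the target of the JNK kinases that act in stressed neurons. It had 28.1, 30.7, 22.8 and 27.9 CPM in WT and 44.1, 44.6 and 44.2 CPM in SCA7 libraries. The SCA7 libraries were nearly identical, and the WT libraries spread more. WT libraries averaged 27.4 ± 3.30 CPM (SD, n = 4) and SCA7 libraries 44.3 ± 0.296 CPM (SD, n = 3), and the log2 fold change was 0.69 ± 0.0851 (SE, edgeR adjusted p = 9.55e-05). *Junos*, annotated on the opposite strand and sharing 232 bases with the exon of *Jun*, was upregulated too, by a log2 fold change of 0.66 (edgeR adjusted p = 0.0205), and its mean was 0.581 CPM in the WT libraries against 0.925 CPM in the SCA7 libraries.

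*Junb* encodes a JUN protein that activates weakly and can hold JUN in check. It had 10.3, 10.0, 9.92 and 10.7 CPM in WT and 19.7, 15.9 and 14.1 CPM in SCA7 libraries. Here the order of spread was the other way round: the WT libraries were nearly identical, and the SCA7 libraries were spread out, with replicate 1 highest. WT libraries averaged 10.2 ± 0.356 CPM (SD, n = 4) and SCA7 libraries 16.6 ± 2.87 CPM (SD, n = 3), and the log2 fold change was 0.70 ± 0.102 (SE, edgeR adjusted p = 0.000353). *Junb* shares 173 exon bases with *Prdx2* on the opposite strand, whose log2 fold change was 0.21 (edgeR adjusted p = 0.132) at a level of 205.1 to 287.3 CPM in WT and 271.7 to 278 CPM in SCA7 libraries.

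*Jund* encodes the JUN protein that cells keep at a steady level without a stimulus. Its level was 32.9, 28.6, 27.1 and 31.0 CPM in WT and 37.5, 36.4 and 36.5 CPM in SCA7 libraries. The genotypes did not overlap, but the gap was narrow. With a log2 fold change of 0.30 ± 0.0705 (SE, edgeR adjusted p = 0.00792) it passed the p threshold, and its FC of 1.23 was under the limit of 1.3, so it was not called. The 95% interval of the log2 fold change, 0.14 to 0.45, reaches above that limit. *Gm11175*, an antisense gene that shares 877 of the 1668 exon bases of *Jund*, was downregulated by a log2 fold change of −0.55 (edgeR adjusted p = 0.0409), with means of 1.09 CPM across WT libraries and 0.746 CPM across SCA7 libraries.

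The stretch before the start of transcription is shown for JUN and FOS genes whose promoters are known for response elements. Their calls differed: *Fos* was not called, while *Fosb*, *Jun* and *Junb* were upregulated. Each sequence runs 5′ to 3′ on the strand of the gene, from 135 to 11 bases before the RefSeq start (GRCm38.p6), and capitals mark every match to a searched motif. *Fos* is chr12:85473755-85473879 on the plus strand, *Fosb* chr7:19310056-19310180, *Jun* chr4:95052233-95052357 and *Junb* chr8:84978759-84978883, all of these on the minus strand.
Fos: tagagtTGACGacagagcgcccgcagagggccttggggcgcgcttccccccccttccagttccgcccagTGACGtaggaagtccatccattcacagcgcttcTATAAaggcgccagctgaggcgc
Fosb: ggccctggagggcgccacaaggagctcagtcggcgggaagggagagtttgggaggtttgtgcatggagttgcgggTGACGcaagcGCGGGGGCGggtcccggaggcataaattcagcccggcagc
Jun: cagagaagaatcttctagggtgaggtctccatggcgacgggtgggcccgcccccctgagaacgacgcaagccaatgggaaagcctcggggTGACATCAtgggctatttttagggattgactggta
Junb: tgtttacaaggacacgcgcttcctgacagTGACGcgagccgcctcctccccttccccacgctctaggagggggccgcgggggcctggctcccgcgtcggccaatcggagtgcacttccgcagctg

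The motifs were searched on both strands in the 250 bases before the start, in 32851 RefSeq windows, of which 8 belong to the genes described here. *Fosl1* and *Egr1* had no window, and bases further upstream were not searched. A count of 0 of the 8 thus says nothing of those genes or of sites further away. The CRE core TGACG, a contact of CREB and ATF proteins, was in 5 of these 8 windows and in 17.8% of all windows. *Fos* holds it from 129 and from 66 bases before the start, *Fosb* from 60 and *Junb* from 106, all on the strand of the gene. *Atf3* holds it as well, from 7 bases before the start, and *Npas4*, the downregulated gene, holds it from 179 and 169 bases before the RefSeq start. GENCODE M21 starts some transcripts of the same gene further upstream than RefSeq. All 250 bases of the windows of *Npas4* and *Fosl2* lie in such exons, with all their matches, and so do 7 bases of that of *Atf3*, with its match, so these matches lie within annotated transcripts and not clearly before a start. No match in the windows of *Fos*, *Fosb*, *Jun* and *Junb* touches an exon of the gene. The window of *Jund*, which held no match, precedes a RefSeq start at chr8:70697739. Its GENCODE start lies downstream, at chr8:70698949, and the bases just before that start were not searched. *Jun* holds the CRE-like site TGACATCA from 45 to 38 bases before its start, a match to TGACNTCA, which was in 1 of the 8 windows and in 7.49% of all windows. The full CRE TGACGTCA, which contains the core and is a form of TGACNTCA, was in 0 of the 8 and in 1.55% of all windows. The AP-1 site TGANTCA was in 0 of the 8 and in 6.75% of all windows, and the CArG box, to which SRF binds, in 0 of the 8 and in 1.47%. The EGR site GCGNGGGCG was in 2 of the 8 windows, those of *Fosb* and *Fosl2*, and in 4.7% of all windows. The TATA box, searched as TATAA, was in 2 of the 8, those of *Fos* and *Npas4*, and in 22.8%. A match to these letters is a description of the window and says nothing of binding in these retinas.

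*Atf3* encodes a bZIP protein that pairs with JUN proteins and is known as a marker of injured neurons. It was not called. Its level was 15.4, 20.1, 12.1 and 11.9 CPM in WT and 15.6, 13.8 and 14.1 CPM in SCA7 libraries. All SCA7 libraries lay inside the WT range, which WT replicate 2 stretched upward. The log2 fold change was −0.04 with a 95% interval from −0.43 to 0.35 (edgeR adjusted p = 0.889), and its sign turned without WT replicate 2.

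*Egr1*, a zinc finger transcription factor made from the same kinase signals as *Fos*, was upregulated. It had 4.59, 3.82, 3.86 and 4.70 CPM in WT and 8.09, 5.41 and 7.31 CPM in SCA7 libraries. No SCA7 library fell into the WT range, although SCA7 replicate 2 came near it. WT libraries averaged 4.24 ± 0.467 CPM (SD, n = 4) and SCA7 libraries 6.94 ± 1.38 CPM (SD, n = 3), and the log2 fold change was 0.71 ± 0.139 (SE, edgeR adjusted p = 0.00264).

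*Npas4* encodes a bHLH-PAS transcription factor that neurons make upon calcium entry and that other stimuli scarcely induce. It was the downregulated gene of the 10. It had 1.45, 1.59, 1.22 and 1.33 CPM in WT and 0.390, 0.375 and 0.486 CPM in SCA7 libraries. The genotypes were far apart, with the highest SCA7 library below the lowest WT library. WT libraries averaged 1.40 ± 0.161 CPM (SD, n = 4) and SCA7 libraries 0.417 ± 0.0602 CPM (SD, n = 3), and the log2 fold change was −1.73 ± 0.183 (SE, edgeR adjusted p = 2.85e-05), or an FC of 0.301. The 95% interval of the log2 fold change ran from −2.13 to −1.33.

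**Figure D2:**
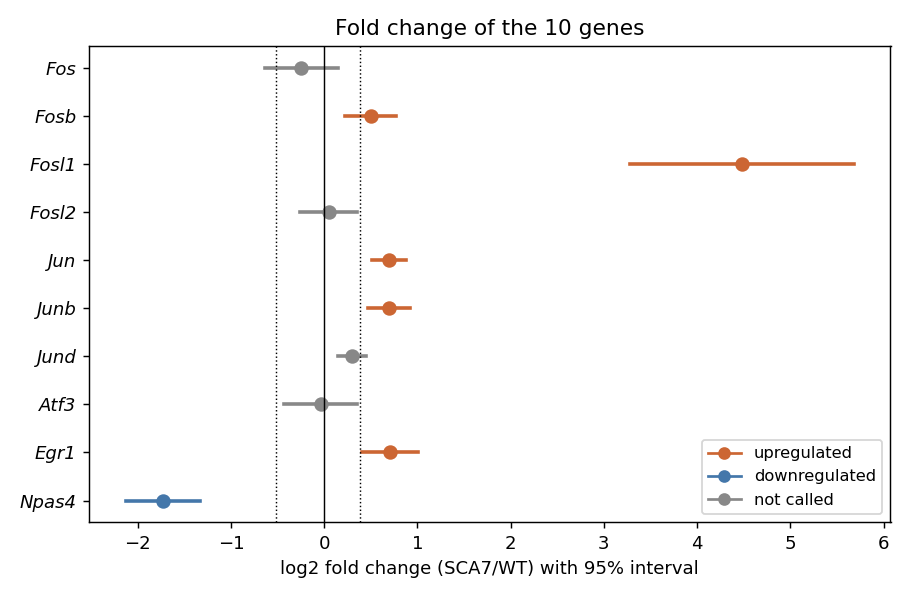
Fitted log2 fold change (SCA7/WT, horizontal axis) of each gene with its 95% interval from edgeR, in orange for upregulated, blue for downregulated and gray for not called. The dotted lines mark FC 0.7 and FC 1.3. *Fosl1* at 4.48 and *Npas4* at −1.73 lie farthest from 0, and *Jun*, *Junb* and *Egr1* lie between 0.69 and 0.71.

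Levels of different genes were compared per length only, as RPK, which divides the size-factor scaled counts by the kb of the median annotated transcript. In WT retina *Fos* was first with a mean RPK of 1372 (1179 to 1586), and *Jund* followed with 1243 (1124 to 1372), ranges that overlap. *Junb* (616), *Jun* (595) and *Atf3* (541) came next, and their ranges overlapped one another. Below them stood *Fosl2* (126), *Egr1* (78.2), *Fosb* (31.3) and *Npas4* (26.8), of which *Fosb* and *Npas4* overlapped, and *Fosl1* was last with 2.29. In SCA7 retina *Jund* was first with 1532 RPK (1509 to 1563), above the whole range of *Fos* (840.3 to 1340, mean 1161). *Junb* (1002) and *Jun* (965) lay within the range of *Fos*, *Atf3* was at 529, *Fosl2* (130) and *Egr1* (128) overlapped, and *Fosl1* (56.3), *Fosb* (44.3) and *Npas4* (7.16 to 9.34) closed the order. *Fos* has short annotated transcripts, with a median length of 814.5 bases against 2352 bases for the union of its exons. With the union as length its mean in WT was 475 RPK (408.3 to 549.2), below *Jund* and within the range of *Atf3* (380.9 to 646.8, mean 478.5), and *Fosl1* (13.7 RPK) came below *Fosb* (25.8 RPK) in SCA7 retina. Other places turned as well in WT: *Egr1* (65.6) came above *Fosl2* (45.2), *Npas4* (23.4) above *Fosb* (18.2), and *Junb* (308) fell below *Jun* and *Atf3*. Much of the order thus rests on the length used, whereas *Jund* was first or next to first in both genotypes with either length.

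**Figure D3:**
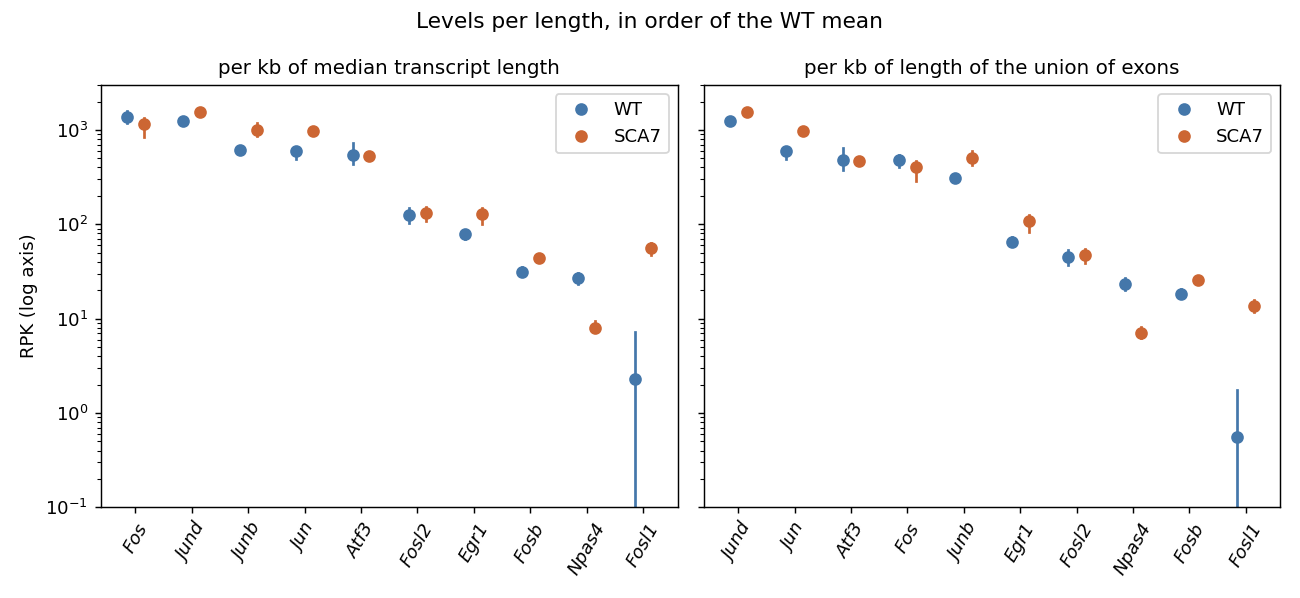
Mean level per length (RPK, log axis) of each gene in WT (blue) and SCA7 (orange) retina, with lines from the lowest to the highest library, in order of the WT mean, per kb of median transcript length (left) and of the union of exons (right). *Fos* is first on the left at 1372 RPK in WT, while on the right it stands at 475 RPK, within the range of *Atf3*, and the lines of *Fosl1* in WT run off the axis because some libraries had 0 counts.

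The makeup of both families is given as shares per library, with no test. *Fos* accounted for 89.5 ± 1.07% (SD, n = 4) of the summed RPK of the FOS family in WT and for 83.1 ± 2.51% (SD, n = 3) in SCA7 retina, with every SCA7 library below every WT library. The share of *Fosl1* was 0.171% (0 to 0.544%) in WT, or 0.0471% without WT replicate 1, and 4.21% (3.01 to 5.46%) in SCA7 retina. The share of *Fosb* went from 2.08% to 3.28% and that of *Fosl2* from 8.25% to 9.47%. The summed RPK of the FOS family ran from 1324 to 1741 in the WT mice and from 1048 to 1586 in the SCA7 mice, and these ranges overlap. In the JUN family *Jund* made up 50.6 ± 1.73% (SD, n = 4) in WT and 43.8 ± 1.79% (SD, n = 3) in SCA7 retina, *Jun* 24.2% and 27.6%, and *Junb* 25.2% and 28.5%. The summed RPK of the JUN family did not overlap, at 2213 to 2610 in WT and 3344 to 3720 in SCA7 libraries. These shares depend on the length. With the union of exons the share of *Junb* was 14.4% in WT and 16.7% in SCA7 retina, that of *Fosb* 3.44% and 5.43%, that of *Jund* 57.9% and 51.1%, and that of *Fosl1* in SCA7 retina 2.92%.

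Within a genotype, the order of the libraries changed from gene to gene. SCA7 replicate 1 was the highest SCA7 library for 6 of the 10 genes and SCA7 replicate 2 the lowest for 7 of the 10, while among WT libraries replicate 3 was lowest for 4. *Fos* and *Egr1* were lowest in SCA7 replicate 2, at log2 deviations of −0.43 and −0.34 from the SCA7 mean, where *Jun* deviated by 0.01. *Atf3* was highest in WT replicate 2, 0.47 above the WT mean. That library had the highest lens and cornea markers in WT, and SCA7 replicate 2 the highest of all, and the part of that tissue in these values was not tested. Without both libraries, *Fosl1*, *Jun*, *Junb* and *Egr1* were still upregulated and *Npas4* downregulated, and *Fosb* had an edgeR adjusted p of 0.0797 at a log2 fold change of 0.50.

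**Figure D4:**
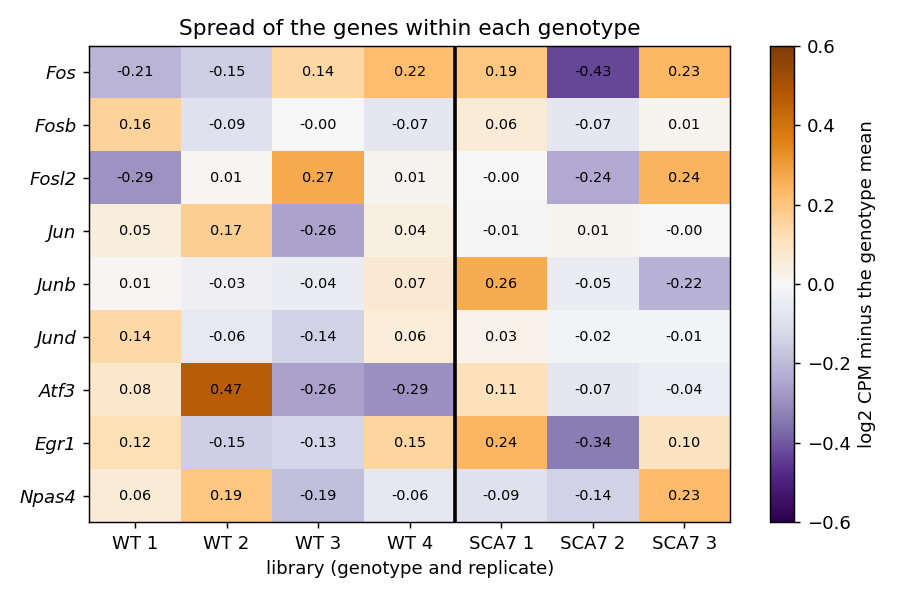
Log2 CPM of each gene minus the mean of its genotype (color and printed value) in each library, WT left and SCA7 right of the black line. *Fosl1* is left out because its WT counts of 0 to 3 give no stable log value. SCA7 replicate 2 is low for *Fos* (−0.43) and *Egr1* (−0.34), WT replicate 2 is high for *Atf3* (0.47), and the SCA7 values of *Jun* are all near 0.

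The genes whose levels followed these most closely over the 7 libraries were found by Pearson's r of log2 CPM among 14712 genes with at least 1 CPM. For *Jun* they were *Syde1* (r = 0.997), *Slc25a51* (0.996) and *Itch* (0.995), for *Npas4* they were *Agap3* (0.999), *Trappc8* (0.998) and *Ranbp6* (0.996), and for *Fosl1* they were *Prr5l* (0.988), *Synpo* (0.988) and *8430429K09Rik* (0.986). The list for *Fosl1* rests on log values that the pseudocount of 0.01 CPM sets in the WT libraries with 0 counts. For *Fos* they were *Cntnap5b* (0.981), *Ephb6* (0.974) and *Lrrc1* (0.967), and by deviations from the genotype means *Thap2* (0.988), *Unc5b* (0.984) and *Ifnar1* (0.984). With 7 points that share library scaling and, but for the deviations, a split by genotype, such values are the top of a long list and only describe it.

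Around these genes, 130 genes of 8 lists were examined, of which 122 were tested. In all, 15 were upregulated (12.3%) and 11 downregulated (9.02%), beside 7.47% and 7.91% of all genes. Among 25 other immediate early genes 6 were upregulated and 1 downregulated, and the median over the list was 0.08 on the log2 scale. The upregulated ones were led by *Egr2*, a relative of *Egr1*, which had 0 to 5 counts in WT and 28 to 40 counts in SCA7 libraries (fitted log2 fold change 3.25, edgeR adjusted p = 0.00205, dependent on the prior count). Like *Fosl1*, it passed the filter only through the SCA7 libraries, so its call is a description. *Gadd45b*, a stress sensor that binds MAP kinase kinases, had a log2 fold change of 1.24 (edgeR adjusted p = 2.8e-06), and *Cyr61*, a secreted matrix protein, 1.07 (edgeR adjusted p = 0.000144). *Ier3* was downregulated at −0.64 (edgeR adjusted p = 8.1e-06). The other 18 were not called.

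Among the other bZIP genes whose products pair or compete with AP-1 proteins, 3 of 13 tested were upregulated and 1 was downregulated (median log2 fold change 0.12). The small MAF genes *Maff* (0.74, edgeR adjusted p = 0.0225) and *Mafk* (0.56, edgeR adjusted p = 0.000768) and *Bach2* (0.60, edgeR adjusted p = 0.0196), a repressor that pairs with small MAF proteins, were upregulated, although the genotypes overlapped for *Maff*. *Atf4*, the effector of the integrated stress response, was downregulated from 285.6 to 198.3 CPM (log2 fold change −0.53, edgeR adjusted p = 0.000343). Of the kinases and the SRF and CREB factors upstream, 1 of 24 was upregulated, *Elk3* (0.50, edgeR adjusted p = 0.00205), and 0 were downregulated by edgeR, DESeq2 or limma-voom, with a median of 0.06. At an unadjusted edgeR p under 0.05, 9 of the 24 were higher and 2 lower, and DESeq2 and limma-voom each called 2 upregulated. Among all 20128 genes tested, at least 2853 were higher and at least 2852 lower at such a p. Of 12 MAP kinase phosphatases and Sprouty-type inhibitors, which damp the signal, *Spry1* was upregulated (0.52, edgeR adjusted p = 0.00296) and *Dusp4* downregulated (−1.02, edgeR adjusted p = 3.35e-05), with a median of 0.02.

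Genes known as AP-1 targets had 4 of 12 tested upregulated, and their median was 0.32 on the log2 scale. *Timp1*, an inhibitor of matrix proteases, went from 0.225 to 1.92 CPM (log2 fold change 3.13, edgeR adjusted p = 8.62e-06). It had 7 to 21 counts in WT libraries and passed the filter on low counts only with the SCA7 libraries, so its call is a description. *Plau*, the urokinase protease, had 1.27 (edgeR adjusted p = 0.00183) and *Cd44*, a receptor for hyaluronan, 1.17 (edgeR adjusted p = 9.45e-06). Glia and microglia also express *Timp1*, *Plau* and *Cd44*, and their marker lists moved the same way, as given above. The part of those cells was not tested.

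Genes that neurons make later after activity had 2 of 12 downregulated, with a median of −0.43. Markers of retinal interneurons had medians of −0.28 for amacrine cells, with 1 of 10 downregulated, and −0.30 for bipolar cells, with 2 of 10 downregulated, beside −0.02 over all genes tested, and their part in this list was not tested. By edgeR, DESeq2 and limma-voom 0 were upregulated, 0 were higher and 10 were lower at an unadjusted edgeR p under 0.05. Among all 20128 genes tested, at least 2852 were lower at such a p, which also bears on the counts of this kind below. The downregulated ones were *Vgf*, a secreted neuropeptide precursor, at −1.46 (31.2 to 11.3 CPM, edgeR adjusted p = 7.46e-05) and *Tac1*, the substance P precursor, at −0.75 (edgeR adjusted p = 0.00122). The list nearest to *Atf3* mixed genes of injured neurons with stress genes such as *Trib3* and *Chac1*. Of the 9 tested, 4 were downregulated and 0 upregulated by edgeR, DESeq2 or limma-voom, with 1 higher at an unadjusted edgeR p under 0.05. The median was −0.25, with 6 genes lower and 3 higher. The higher ones were *Gal* (0.37), *Sox11* (0.29) and *Gap43* (0.19), none of them called, so the decreases do not hold for the whole list. The largest decreases were *Ecel1* (−1.59, edgeR adjusted p = 0.0274, with overlapping genotypes), *Trib3* (−0.90, edgeR adjusted p = 0.000624) and *Chac1* (−0.86, edgeR adjusted p = 0.000675), and *Trib3* and *Chac1* are known targets of ATF4. Of 15 circadian clock genes, which bear on the time of day at dissection, 0 were upregulated by edgeR, DESeq2 or limma-voom, 0 were higher and 7 lower at an unadjusted edgeR p under 0.05, and *Per3* was downregulated at −0.54 (edgeR adjusted p = 0.00021), with a median of −0.17 and a range from −0.54 to 0.14. The time of dissection is not given in the sources used here.

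**Figure D5:**
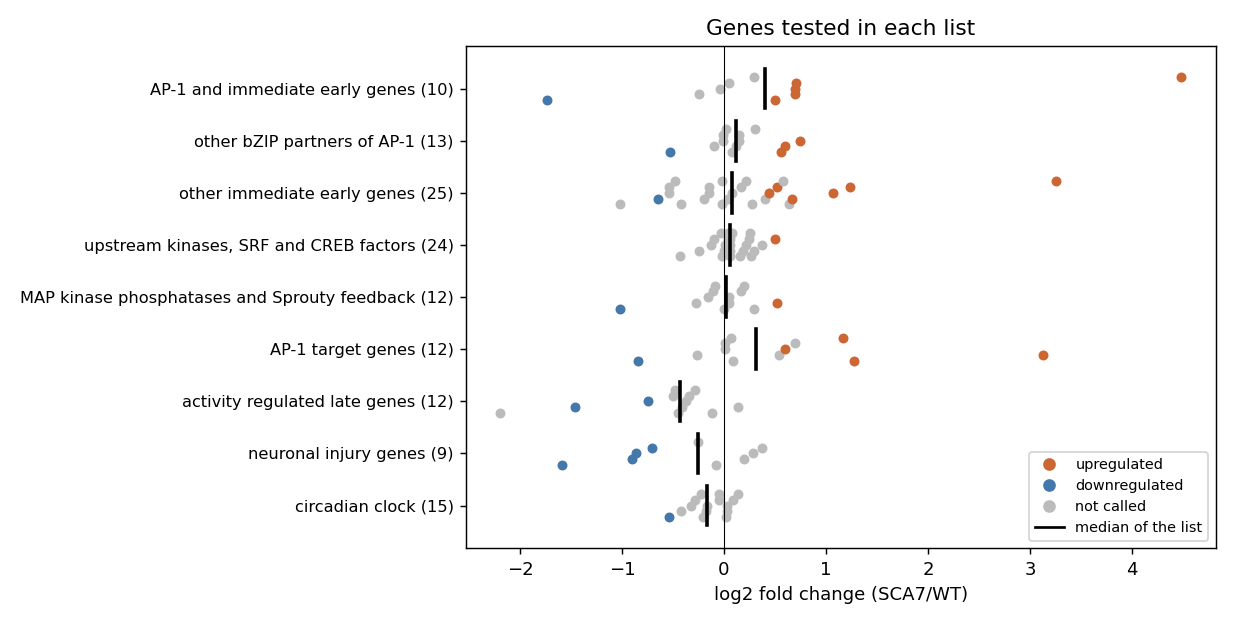
Fitted log2 fold change (SCA7/WT, horizontal axis) of each tested gene, by list with the number tested in parentheses, in orange for upregulated, blue for downregulated and gray for not called, with a black bar at the median of the list. The median lies at 0.40 for the AP-1 and immediate early genes, at 0.32 for AP-1 target genes and at −0.43 for activity regulated late genes, beside −0.02 over all genes tested. Vertical offsets within a list only separate the points.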

How the data were processed

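Total RNA was measured in 7 retina libraries, 4 WT and 3 SCA7, grouped by the sample labels. The authors prepared stranded, rRNA-depleted libraries and aligned the single-end reads with TopHat2 2.0.14 and Bowtie2 2.1.0 (mm10), and HTSeq 0.6.1 assigned them to Ensembl genes (versions also in the submitters' processing notes). The deposited values are raw counts per gene, not normalized. Neither the counting mode nor its strand setting is given in the sources used here. Multi-mapped and ambiguous reads could therefore be lost from genes that share exons.

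The 10 genes and all lists were chosen with earlier results of these data known. Counts were filtered by filterByExpr (20128 of 52550 genes), scaled by TMM and tested with edgeR's quasi-likelihood test (robust), and p-values were adjusted by Benjamini-Hochberg across the whole table of tested genes. P-values measure the spread between these mice. Depth was 56497675 to 96635832 counts per library. RPK used DESeq2 size factors. Log values used a pseudocount of 0.01 CPM. Gene positions and lengths come from GENCODE M21 (52403 IDs matched). Promoters come from a set of RefSeq windows that held 8 of the 10 genes, without *Fosl1* and *Egr1*.

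Named from each list were the 3 largest increases and the 3 largest decreases among called genes, beside all 10 genes, the closest correlates, *Atxn7* and genes sharing exons. The values of 1 gene of the lists are not reported here. Alternatives were DESeq2 size factors, the DESeq2 Wald test, limma-voom, both other filters, the replicate number as a block, another p threshold, no FC threshold, each library left out, TMM factors and the union of exons for RPK, and, chosen after seeing the data, leaving out replicate 2 of both genotypes. Over 14720 genes, deviations of same-numbered WT and SCA7 libraries correlated at 0.109, 0.382 and 0.167 for replicates 1, 2 and 3, so by the rule that all 3 exceed 0.1 the numbers, which come from the sample titles, were taken to pair the samples. The pairing is weak: WT replicate 4, which has no partner, correlated more with SCA7 replicates 1 and 3 (0.145 and 0.188) than their own partners did. The main test left the pairing out, and only the alternative with the replicate block used it. In that block WT replicate 4 adds nothing to the comparison of genotypes. In a simulation of this comparison on 19760 genes, edgeR recovered 139 of 142 genes over 1 CPM that were given a log2 change of 1, and called 6 unchanged genes. With the replicate block it recovered 133 and called 16 unchanged genes, more than first allowed for, and the limit was then loosened. These recoveries do not cover smaller changes, such as those of *Fosb*, *Jun*, *Junb* and *Egr1*, or genes under 1 CPM, such as *Fosl1*. R 4.3.3, edgeR 4.0.16, limma 3.58.1 and DESeq2 1.42.0 were used.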

Additional observations from a re-analysis of the deposited data

How the results depend on the processing

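Of the 10 genes, the number upregulated was 5 with DESeq2 size factors, the DESeq2 Wald test, limma-voom, the looser filter and the replicate block, between 4 and 5 with each library left out, and 4 at an adjusted p under 0.01 or with at least 10 counts in every library, a filter that drops *Fosl1*. It was 6 with no FC threshold, which adds *Jund*. The number downregulated was 1 throughout. *Fosb* lost its call without SCA7 replicate 1 (adjusted p = 0.0547), without replicate 2 of both genotypes (0.0797) and at the stricter threshold, and without replicate 2 of both genotypes the adjusted p of *Jund* was 0.0851. Signs turned for genes that were not called: with each library left out the log2 fold change of *Fosl2* ran from −0.086 (without SCA7 replicate 3) to 0.16, with −0.038 without WT replicate 1, and that of *Atf3* from −0.14 to 0.14 (without WT replicate 2), and *Atf3* had 0.18 without replicate 2 of both genotypes. With no FC threshold the lists held 25 upregulated and 23 downregulated genes, against 15 and 11, and all genes 2853 and 2852, against 1504 and 1592. By edgeR with the replicate block all genes gave 1629 and 1706 and the lists 16 and 13, and the pairing changed no call of the 10 genes. Per length, the union of exons moved the share of *Fosl1* in SCA7 retina to 2.92% and that of *Jund* to 57.9% in WT and 51.1% in SCA7 retina. The low counts of *Fosl1* in WT leave its fold change open over a wide range, and 3 SCA7 mice at 1 age limit every estimate.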

Other observations

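Some genes of the lists that were not called lay on 1 side of WT in every SCA7 library, and these were picked after their values were seen. *Penk*, the enkephalin precursor of amacrine cells, ranged from 8.29 to 43.8 CPM in WT and from 4.36 to 4.79 CPM in SCA7 libraries. Its fitted log2 fold change was −2.19 (edgeR adjusted p = 0.0665), and the spread lay almost wholly among WT mice. *Nptx1*, a neuronal pentraxin, had 53.4 to 63.6 CPM in WT and 39.7 to 42.7 CPM in SCA7 libraries, and with a log2 fold change of −0.50 (edgeR adjusted p = 0.000215) it missed the FC limit. *Dusp1*, the immediate early phosphatase of MAP kinases, had 9.94 to 13.6 CPM in WT and 7.71 to 9.62 CPM in SCA7 libraries (log2 fold change −0.48, edgeR adjusted p = 0.00831), the opposite sign to *Jun*, *Junb* and *Egr1*. *Nfe2l2*, the bZIP factor of the antioxidant response, had 21.6 to 23.8 CPM in WT and 26.4 to 29.7 CPM in SCA7 libraries (log2 fold change 0.30, edgeR adjusted p = 0.00459).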
